A study of Drosophila melanogaster with 4 samples.

Results

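The Hox genes of Drosophila melanogaster lie in a pair of complexes on chromosome arm 3R, and the regions enriched for histone H3 trimethylated at lysine 79 (H3K79me3) in these complexes were examined in wild-type larvae. The Antennapedia complex was taken as 3R:2480000-2830000 and the bithorax complex as 3R:12480000-12810000, on FlyBase release 5. The first interval is held to contain 5 Hox genes (lab, pb, Dfd, Scr and Antp) and the second 3 (Ubx, abd-A and Abd-B). Every deposited region that overlapped either interval was kept. This gave 14 of the 5114 enriched regions of replicate 1, 14 of the 4689 of replicate 2 and 15 of the 5331 of a series-wide list. No depleted entry of any list lay in either complex. The number of depleted entries elsewhere is not given here, so this does not set the complexes apart.

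The material was chromatin of Oregon-R larvae at the third instar, with a wild-type genotype and no treatment named in the labels. Chromatin immunoprecipitation and sequencing (ChIP-seq) used the rabbit polyclonal antibody ab2621 on formaldehyde-fixed, sonicated chromatin. The labels list 2 ChIP libraries and 2 input libraries. Region lists of the ChIP libraries were used, and input values were not analysed here, so no background from unselected chromatin stands beside the values below. Nothing in the labels says that the replicates were separate collections of larvae, so the spread between them may be technical.

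Hox genes encode homeodomain transcription factors that give segments along the body axis their identity, and their order on the chromosome follows the order of the body parts they specify. Each is active in some segments and held silent in the others by Polycomb group proteins, for which these complexes are classical targets. H3K79 methylation, which the enzyme Dot1 (grappa in Drosophila) lays down, is known as a mark of gene bodies under transcription. The libraries were made from chromatin of many cells, so a mark carried by fewer cells and a weaker mark in each cell cannot be told apart.

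Gene order was read from a RefSeq table on release 6, in which all 8 members were found. In the Antennapedia complex the order is lab, which acts in the head, pb, needed for the mouthparts, Dfd, which specifies the mandibular and maxillary segments, Scr, for the labial and prothoracic segments, and Antp, for the thorax. The table lists 43 genes from lab to Antp, of which 19 encode proteins. They include a run of cuticle protein genes between lab and pb (Edg84A and Ccp84Ag to Ccp84Aa), then zen2, zen, bcd, the anterior determinant of the egg, and Ama between pb and Dfd, the microRNA gene mir-10 between Dfd and Scr, and the pair-rule gene ftz between Scr and Antp. In the bithorax complex Ubx specifies the posterior thorax and anterior abdomen, abd-A the middle of the abdomen and Abd-B its posterior end. The table lists 16 genes from Ubx to Abd-B, 6 of them protein-coding, with the noncoding bxd RNA between Ubx and abd-A and the iab4 and iab8 RNAs, with mir-iab-4 and mir-iab-8, between abd-A and Abd-B. Because this table and the region lists are on different releases, no region was assigned to a gene, and the results are given by position in each complex.

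The H3K79me3 regions of both complexes lay far apart and covered little of their length. In the Antennapedia complex, regions covered 5.15% of the interval in replicate 1 and 5.17% in replicate 2, a mean of 5.16 ± 0.0166% (SD, n = 2). These were 6 regions with 18.0 kb and 5 regions with 18.1 kb. In the bithorax complex, the covered share was 7.18% in replicate 1 and 6.14% in replicate 2, a mean of 6.66 ± 0.735% (SD, n = 2), from 8 regions over 23.7 kb and 9 regions over 20.3 kb. The rest of 3R outside the complexes held 1183 regions in replicate 1 and 1067 in replicate 2. It was covered to 26.0% and 25.0% (25.5 ± 0.764%, SD, n = 2). The bithorax value lay above the Antennapedia value in both replicates, by 2.03 and 0.966 percentage points. The series-wide list gave 6.20% for the Antennapedia complex and 9.98% for the bithorax complex, against 27.9% of the whole arm.

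**Figure D1:**
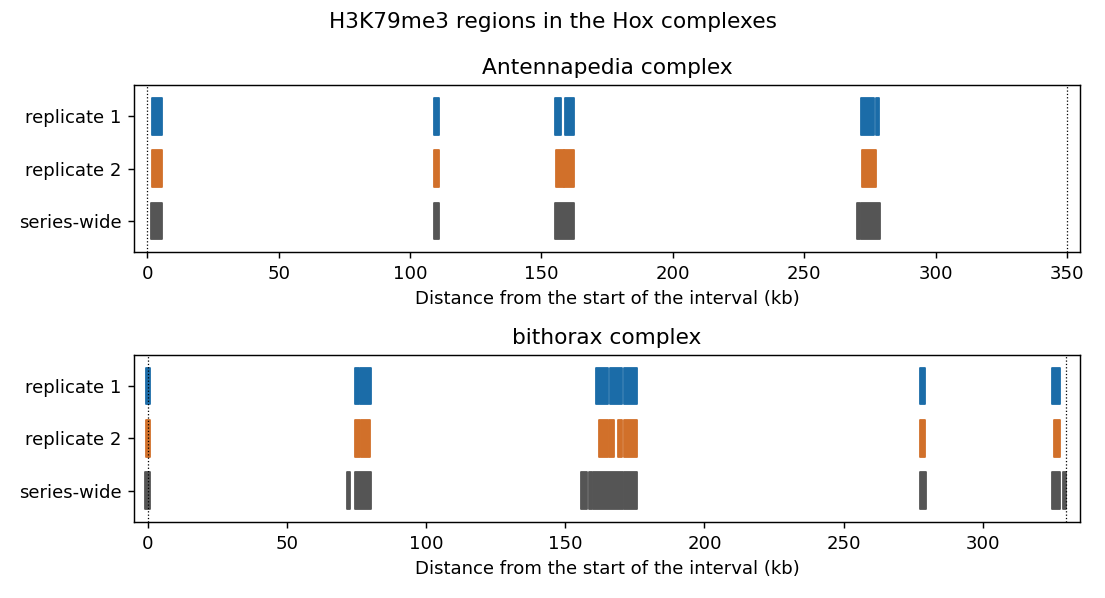
Position of every H3K79me3 region in the Antennapedia complex (upper panel) and the bithorax complex (lower panel), with distance from the start of the interval in kb on the x axis and 1 row for each list. Dotted lines mark the interval ends, and the 14 regions of replicate 1 and the 14 of replicate 2 fall in the same few places.

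The regions of both replicates fell in the same places. Regions of either replicate less than 5 kb apart were joined into clusters, a distance chosen after the regions had been seen. This gave 4 clusters in the Antennapedia complex and 5 in the bithorax complex, and every cluster held regions of both replicates and of the series-wide list.

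In the Antennapedia complex, the cluster at the low-coordinate end, at 3R:2481687-2485745, held the highest score of the complex in each list. It was a single region of 3.93 kb in replicate 1 (score 1.45, above 74.8% of all regions of that list) and of 4.03 kb in replicate 2 (score 1.23, above 70.3%). It began 1.69 kb inside the interval, so that whether it belongs to the complex or to its neighbour depends on where the boundary is drawn. The RefSeq table places lab as the first member at this end, with agt, which encodes a DNA repair methyltransferase, before it.

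The next cluster, at 3R:2589064-2590964, was the smallest of the complex. It was covered over 1.81 kb in replicate 1 and 1.84 kb in replicate 2, and its scores of 0.317 and 0.426 exceeded only 2.52% and 8.68% of the regions in the respective lists. A wider cluster followed at 3R:2635150-2642394, with 2 regions in each replicate that covered 5.89 and 6.64 kb. Its highest scores, 0.715 and 0.565, were below the median of 3R in each list (0.916 and 0.871). The series-wide list joined it into 1 region of 7.28 kb, the widest of the complex in that list.

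The last cluster, at 3R:2751569-2758666, held the widest region of the complex in each replicate. Replicate 1 had a region of 4989 bp (score 0.724) and one of 1409 bp (score 0.310), and replicate 2 had a single region of 5594 bp (score 0.658). Of the 4 clusters of the complex, this one differed most between replicates, with 4.89 kb shared and a Jaccard index (bases called in both replicates over bases called in at least 1) of 0.689. The 2 widest clusters together held most of the covered length of the complex, 34.7% and 33.2% of it.

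In the bithorax complex, most of the covered length of the replicates lay in 1 cluster near the middle, at 3R:12641026-12655718. It spanned 14.7 kb and made up 54.1% of the covered length of the complex, averaged over the replicates. The series-wide list covered 15.6 kb in this cluster, of 32.9 kb in the complex, so there it did not hold most. In replicate 1 it consisted of 3 regions with 13.0 kb, and replicate 2 had 4 regions with 10.8 kb. Its region at the high-coordinate end had the highest score of the complex in each list. In replicate 1 that region spanned 12651184 to 12655681 (score 1.19, above 62.8% of the list), and replicate 2 placed it at 12651204 to 12655718 (score 0.928, above 53.3%). It was also the widest region of the complex in both, at 4498 and 4515 bp. The replicates placed its ends 20 and 37 bp apart, whereas the lower end of the cluster lay at 12641026 in replicate 1 and at 12642262 in replicate 2. The series-wide list put a region of 10.9 kb beside it, the widest of any list in either complex.

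The cluster at 3R:12554506-12560069 was the next largest, with 2 regions in each replicate that covered 5.16 and 4.96 kb. Its highest score stood above 52.2% of the list in replicate 1 and above 26.7% in replicate 2. The other 3 clusters were single narrow regions in each replicate with scores below the median of 3R. One straddled the low-coordinate boundary, at 3R:12479208-12480798, and began 0.792 kb below it. One lay at 3R:12757569-12759401 and one at 3R:12804750-12807877, which ended 2.12 kb before the high-coordinate boundary. The last of these had a Jaccard index of 0.611, the lowest of the 9 clusters.

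Most scores in the complexes were below the median of the arm, while widths were less clearly so. Each score is the authors' own value for a region, has no stated unit, and is compared here only within a list. Of the 14 regions in the complexes, 3 exceeded the median score of 3R in replicate 1 and 2 did so in replicate 2. The median score was 0.636 in replicate 1 and 0.564 in replicate 2, against 0.921 and 0.877 for the other regions of 3R. By width, 6 of 14 and 3 of 14 exceeded the median of 3R (3775 and 3944 bp). In replicate 1 these were 2 of 6 in the Antennapedia complex and 4 of 8 in the bithorax complex, and in replicate 2 they were 2 of 5 and 1 of 9. In the series-wide list, 3 of 5 and 3 of 10 were wider than its median of 3725 bp. The widest region of the complexes was 4989 bp in replicate 1 and 5594 bp in replicate 2, while 47 and 46 regions elsewhere on 3R were 20 kb or wider.

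**Figure D2:**
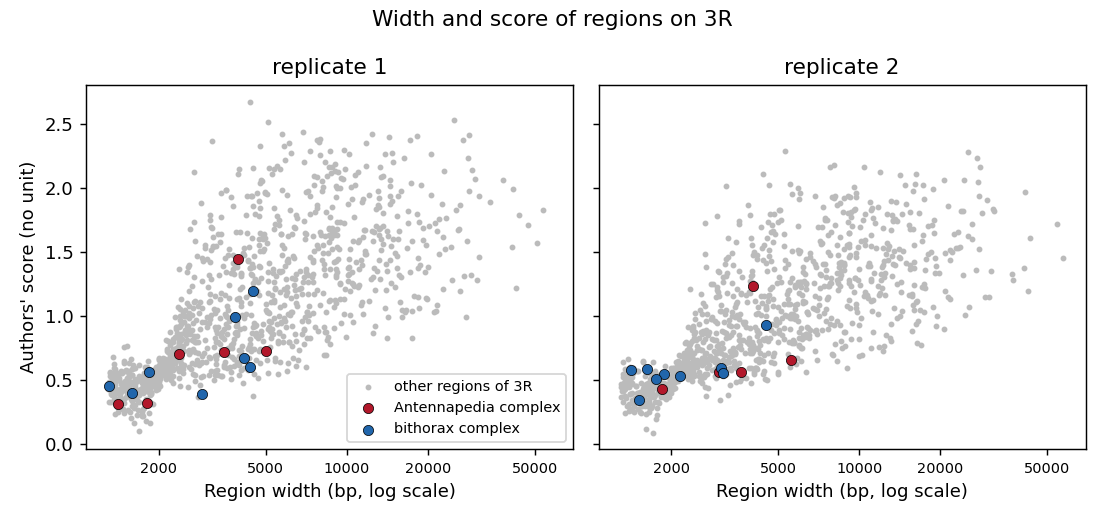
Region width in bp (x axis, log scale) against the authors' score (y axis, no unit) for all regions of 3R in replicate 1 (left) and replicate 2 (right). Regions of the complexes, drawn as large points, stay below 5 kb in replicate 1 and below 6 kb in replicate 2, and most lie in the lower part of the score range.

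Most of each complex held no region at all. The arm was divided into 10 kb bins, and 46.8% of the 2791 bins held at least part of a region in replicate 1 and 44.8% in replicate 2. In the Antennapedia complex this was 6 of 35 bins in each replicate, or 17.1%. In the bithorax complex it was 7 of 33 bins in replicate 1 (21.2%) and 6 of 33 in replicate 2 (18.2%). Bins covered to at least 50% numbered 1 and 1 in the Antennapedia complex and 2 and 1 in the bithorax complex, against 24.5% and 23.4% of all bins of the arm.

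The regions were separated by long stretches without a call. In the Antennapedia complex, the longest that lay wholly inside was 109.2 kb in replicate 1 (2642361 to 2751568), and replicate 2 gave 109.5 kb (2642395 to 2751881). A stretch of 132.7 kb in replicate 1 and 132.9 kb in replicate 2 began inside the complex, after its last cluster, and ended beyond the interval. In the bithorax complex, the longest measured 101.9 kb in both replicates (12655682 to 12757568, and 12655719 to 12757635). Stretches of at least 50 kb took up 79.5% of the complexes in replicate 1 and 79.9% in replicate 2, against 45.6% and 47.0% of the arm.

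Stretches of this length were long for the arm, where the median stretch was 3.42 kb in replicate 1 and 4.31 kb in replicate 2, but longer ones occurred elsewhere. Of the 122 stretches of at least 50 kb on 3R in each replicate, 6 met a complex in whole or in part. The complexes span 350 and 330 kb of an arm of 27.9 Mb. The longest stretch that met a complex ranked 32 of 1196 by length in replicate 1 and 34 of 1079 in replicate 2. It ran beyond the Antennapedia interval, with 71.3 and 72.5 kb inside. The longest stretch wholly inside a complex ranked 44 in replicate 1 and 45 in replicate 2. The longest on the arm measured 334.7 and 355.7 kb.

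**Figure D3:**
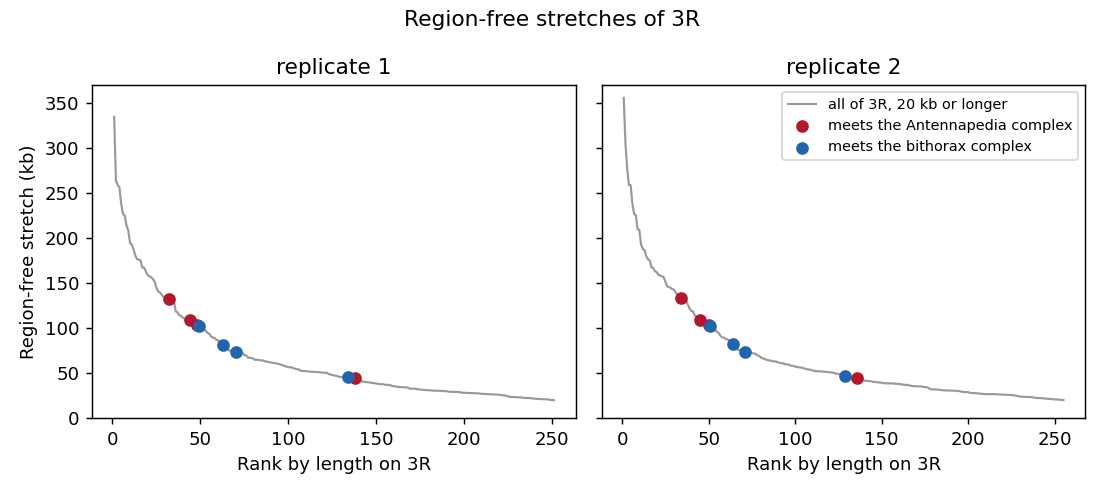
Length in kb of region-free stretches of 3R that are 20 kb or longer (y axis), ordered by rank (x axis), in replicate 1 (left) and replicate 2 (right). Points mark the stretches that meet a complex, the longest of which ranks 32 of 1196 in replicate 1 and 34 of 1079 in replicate 2. That stretch runs beyond the Antennapedia interval.

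The 500 kb on each side of a complex was covered more densely than the complex. Below and above the Antennapedia complex these flanks held 13 and 14 regions in replicate 1, and 11 and 14 in replicate 2. Beside the bithorax complex they held 31 and 20 in replicate 1, and 25 and 15 in replicate 2. Each flank is longer than the complex beside it, so the region counts are on unlike lengths. The flanks of the Antennapedia complex were covered to 20.4% in replicate 1 and 19.8% in replicate 2, and the complex minus its flanks was -15.3 and -14.6 percentage points (mean -15.0 ± 0.461, SD, n = 2). The flanks of the bithorax complex were covered to 23.7% and 22.3%, and the difference was -16.5 and -16.2 points (mean -16.4 ± 0.269, SD, n = 2). The replicates gave close values for each complex, but this spread does not measure how the covered share varies along the arm. With 2 replicates, an exact two-sided sign-flip permutation test gave p = 0.5 for each complex, which is the smallest value it can give.

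The flanks of the Antennapedia complex were themselves uneven. The 100 kb next to its low-coordinate end were covered to 3.08% in replicate 1 and 3.50% in replicate 2, and the 100 kb next to its high-coordinate end to 28.7% and 29.7%, against 25.6% and 24.5% for the arm. In steps of 100 kb, its flanks ranged from 0% to 81.9% in replicate 1, and the highest step reached 78.6% in replicate 2. The medians were 7.35% and 6.84%, and 4 of the 10 steps were below the complex in each replicate. Each step is shorter than the complex, which spans 350 kb, so unlike lengths are compared. A step 200 to 300 kb below the complex held the highest value, and the step 100 to 200 kb above it the next, with 51.6% and 51.3%. Without the highest step the flanks were covered to 13.6% and 13.3%, and the mean difference was -8.28 points. This alternative was chosen after the values had been seen. On the high-coordinate side, the next region lay 61.3 kb beyond the interval in replicate 1 and 60.4 kb beyond it in replicate 2.

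The sequence next to both ends of the bithorax complex was covered more densely than the complex. Its flanks had medians of 20.8% and 18.6% over 100 kb steps, and 2 of 10 steps were below the complex in each replicate. Here too each step is shorter than the complex, which spans 330 kb. On the side where Abd-B lies, a region began 0.555 kb past the interval in replicate 1 and 0.323 kb past it in replicate 2, and the first 20 kb beyond were covered to 70.9% and 69.0%. On the Ubx side, the 20 kb before the interval were covered to 48.9% and 41.1%, but the first 100 kb only to 18.0% and 15.6% and the next 100 kb to 12.7% and 11.0%, below the arm as a whole. Widening the interval by 20 kb at each end raised its covered share from 6.66 to 12.2%, and the difference from the flanks was then -8.96 points.

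**Figure D4:**
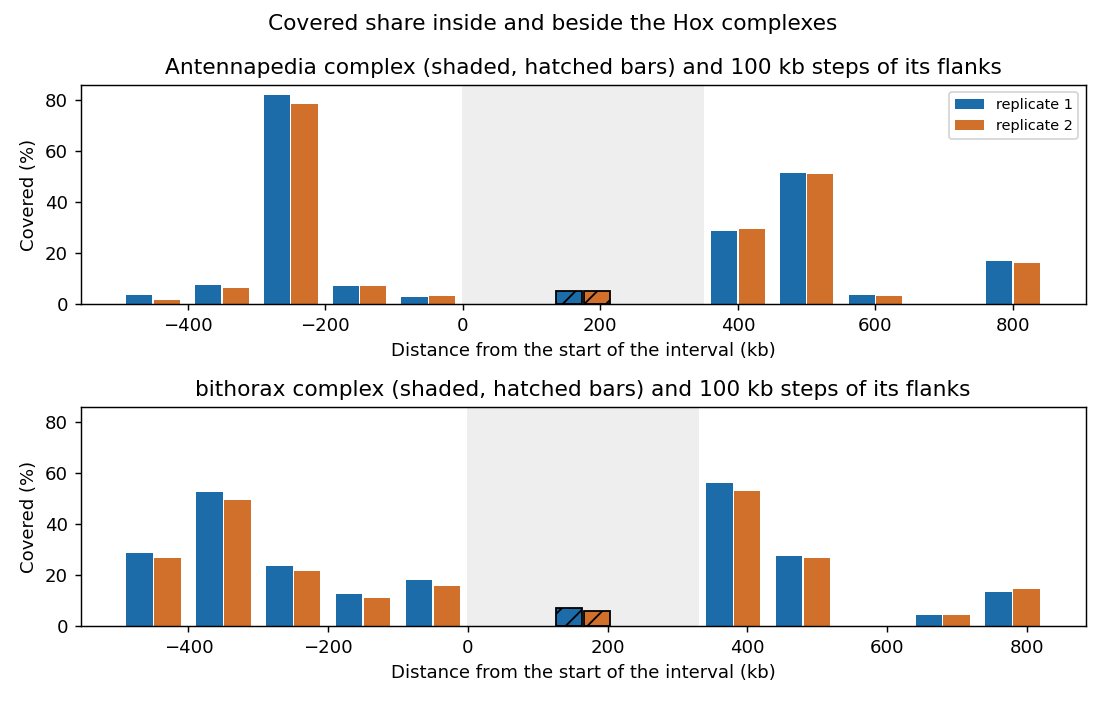
Covered share in percent (y axis) of each complex as a whole (hatched bars in the shaded span) and of the 100 kb steps on either side, by distance from the start of the interval in kb (x axis), for replicate 1 (blue) and replicate 2 (orange). The steps are uneven, from 0% to 81.9% beside the Antennapedia complex (upper panel) and from 0% to 56.1% beside the bithorax complex (lower panel) in replicate 1.

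Among windows of the same size along 3R, both complexes were at the sparse end. Windows were laid end to end from the first base of the arm, and those that touched a complex were left out. Of 75 windows of the size of the Antennapedia complex, 1 was covered less than the complex in each replicate, and the median window was covered to 23.3% and 23.1%. That window lay at 3R:23800069-24150069 and was covered to 1.45% and 1.03%. Of 80 windows of the size of the bithorax complex, 0 were covered less in replicate 1 and 1 in replicate 2, where the median windows were covered to 23.5% and 23.4%. The lowest window was covered to 7.96% in replicate 1, next to 7.18% for the complex. Windows of 1 arm are not replicates, and these positions in the order describe the arm.

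**Figure D5:**
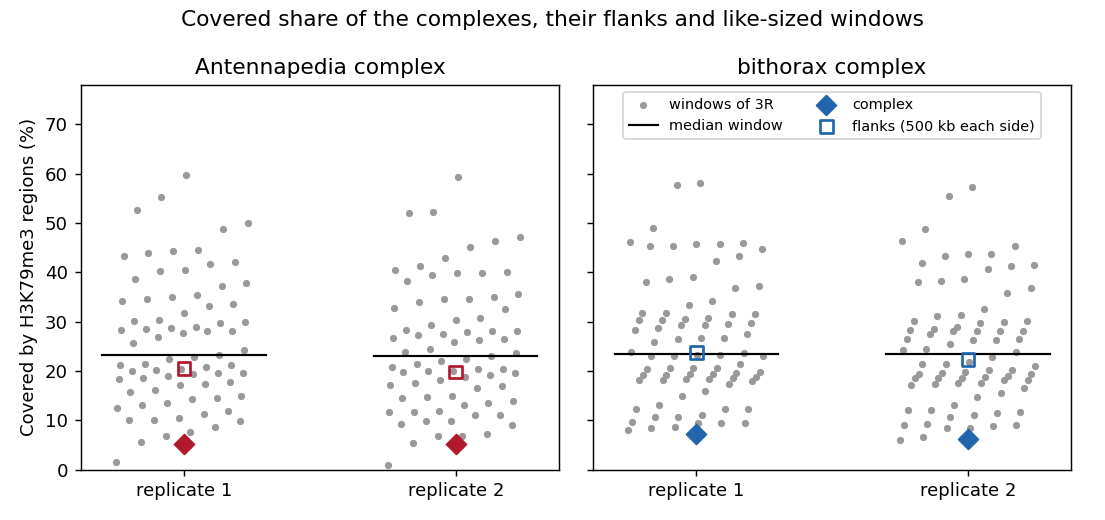
Covered share in percent (y axis) of each complex (filled diamond), of its 500 kb flanks (open square) and of like-sized windows of 3R (grey points, the line marks their median) in replicate 1 and replicate 2. The horizontal spread of the grey points carries no meaning, and at most 1 window lies below the complex in each case.

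This order was less extreme for both complexes when windows of other arms were included or the intervals were trimmed. For the bithorax complex it was also less extreme when the windows were moved or the interval was extended. With windows of all 5 large arms, an alternative added after the data had been seen, 19 of 334 windows in replicate 1 and 20 of 334 in replicate 2 were covered less than the Antennapedia complex. For the bithorax complex it was 27 of 354 in each replicate. With windows of 3R started every 50 kb, 1.24% of them were lower than the Antennapedia complex (1.33% with windows laid end to end) and 3.24% were lower than the bithorax complex (0.625% end to end), as means of the replicates. Trimming the intervals by 20 kb at each end gave 2.94% for the Antennapedia and 6.52% for the bithorax complex. Extending them by 20 kb gave 0% and 13.4%.

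The replicates overlapped less closely in the complexes than on the arm as a whole. The Jaccard index was 0.804 in the Antennapedia complex and 0.773 in the bithorax complex, against 0.892 for all of 3R. Among like-sized windows, 6 of 75 had a lower index than the Antennapedia complex and 3 of 80 had a lower index than the bithorax complex. The medians were 0.890 in both sets. These windows were not matched to the complexes for covered share or region width. Whether the lower index goes with either was not tested. All 14 regions of each replicate overlapped a region of the other by at least 1 bp. When at least 50% of a region had to be covered, 1 failed, the region of 1409 bp at 3R:2757258-2758666 in replicate 1, which was covered to 15.5%. The same places were thus called in both, with regions that began and ended at different bases.

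The series-wide list held 5 regions in the complexes that met no region of either replicate. In the Antennapedia complex this was 1 of 5, at 3R:2750000-2751196 (1197 bp, score 0.395). In the bithorax complex it was 4 of 10, with widths from 1001 to 2243 bp and scores from 0.370 to 0.419, at 3R:12551450-12552652, 3R:12635552-12637794, 3R:12638456-12639456 and 3R:12808712-12809910. On the whole arm 134 of 1210 series-wide regions, or 11.1%, met neither replicate. All but 1 of the 5 were narrower than 1301 bp, the width of the narrowest region on 3R in the replicate lists.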

How the data were processed

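ChIP-seq of H3K79me3 in larvae at the third instar was represented by 3 region lists, 1 per ChIP replicate and 1 for the series. The authors deposited each region with its first and last base, on FlyBase release 5 per the file headers, and with a score that has no stated unit. The submitters' processing notes list Bowtie 0.12.7. The caller, its threshold, and the handling of input and replicates are details not given in the sources used here. Region lists hold no counts, so depth is unknown. The SD over 2 replicates is given as their spread, which may be technical. An SD of a covered share does not show whether the same bases were called, for which the Jaccard index is given.

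Overlapping or touching regions were joined and clipped to an interval before bases were counted. Replicate lists were analysed separately and averaged. Covered share was compared with the 500 kb on each side, with 10 kb bins and with like-sized windows of 3R. On 20 simulated list pairs, the interval code gave the same bases as a per-base mask in 20. Python 3.11.15, numpy 2.4.6 and matplotlib 3.10.9 were used. Alternatives tried were a stricter list (its upper 50% by score), joining regions closer than 500 bp, the series-wide list, each replicate alone, shifted interval ends, other flanks, bins, windows and overlap rules. By rule, the regions named in each complex were the highest-scoring and the widest of each list, the longest stretch without a region, and regions of 1 replicate alone. The remaining regions were named as cluster members after their values were seen. The complexes, intervals and comparisons were chosen with earlier results of these data known. No gene was assigned to a region, as gene coordinates on release 5 were not used here.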

Additional observations from a re-analysis of the deposited data

How the results depend on the processing

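Each complex stayed below its flanks under every alternative run. For the Antennapedia complex the difference lay between -22.6 points (flanks of 250 kb) and -8.28 points (flanks without their densest 100 kb step, added after the data were seen), and was -11.7 points with flanks of 1000 kb. For the bithorax complex it lay between -18.9 points (flanks of 250 kb) and -8.96 points (interval extended by 20 kb). The covered share depended on the list. In the top 50% of each list by score it fell to 1.14% for the Antennapedia and 1.95% for the bithorax complex, and the series-wide list gave 6.20 and 9.98%. Joining regions closer than 500 bp gave 5.20% for the Antennapedia complex. Extending the intervals by 20 kb gave 5.47 and 12.2%, and trimming gave 4.54% for the Antennapedia complex. Leaving out 1 replicate gave 5.15 to 5.17% and 6.14 to 7.18%. The share of windows below the complex was on average 1.33% for the Antennapedia complex and 0.625% for the bithorax complex. It became 0 and 13.4% with extended intervals, 2.94 and 6.52% with trimmed ones, 1.24 and 3.24% with windows started every 50 kb, and 5.84 and 7.63% over the 5 large arms. Bins of 5 kb with any base covered lowered the share of bins of the complexes holding a region from 18.4 to 13.2%. This fall was not confined to the complexes. The share over all bins of 3R was 38.3% (replicate 1) and 36.9% (replicate 2) at 5 kb, below the 46.8% and 44.8% at 10 kb. No paired analysis was possible because the groups that share replicate numbers, ChIP and input, were not compared here; each complex and its flanks were compared within a replicate. Unknown depth limits the result: a base outside all regions was not called, which does not show that the mark is absent there.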
